A study of Mus musculus with 2 samples.

Results

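The genes described are the calmodulin genes Calm2 and Calm3 and 3 genes for small proteins that bind calmodulin through an IQ motif, Nrgn (neurogranin), Pcp4 (also called PEP-19) and Gap43 (growth-associated protein). They were picked by name, with earlier results of these data known, and are 5 of the 19042 annotated genes with at least 1 read. All 5 were read in both libraries and together held 0.824% and 0.725% of the reads. A gene's reads are those of every transcript model deposited under its name. Because the levels of these genes, the 3' forms and the unannotated Nrgn intron guided the choice, they are described here with no test.

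Total RNA of the hippocampus (the labels give the tissue as a layer of it) was read as long cDNA molecules in female mice of the strain B6CASTF1/J at an age of 14 days. These mice are first-generation offspring of a cross between C57BL/6J and CAST/EiJ, and both parental alleles were counted together against mm10. There was 1 group with 2 biological replicates and no second condition, and each library was made from 2 µg of RNA pooled from 3 animals, with ERCC and SIRV spike-in RNA. Replicate 1 held 1168366 reads and replicate 2 held 888704, so 1 read was worth 0.856 and 1.13 CPM (counts per 1e6 reads of the library). A test on reads compares these libraries and not conditions. Intervals are exact 95% intervals and cover counting error only. In bulk tissue, fewer cells of a type and less RNA per cell cannot be told apart.

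Calmodulin is a small calcium sensor that changes shape when calcium binds and then switches kinases, phosphatases, cyclases and channels on or off. Several genes of a vertebrate encode the same calmodulin protein. Neurogranin sits in dendrites and spines of forebrain neurons, Pcp4 in Purkinje cells, dentate granule cells and the CA2 field among other neurons, and Gap43 in growing axons. Neurogranin and Gap43 are known to hold calmodulin when calcium is low and to release it when calcium rises or protein kinase C phosphorylates them, and Pcp4 is known to speed the exchange of calcium on calmodulin.

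Calm2 and Calm3 are built alike. Calm2 (ENSMUSG00000036438.13) lies at mm10 chr17:87433412-87446935 and Calm3 (ENSMUSG00000019370.10) at chr7:16915379-16924114, both on the minus strand. The leading annotated transcript of each has 6 exons with 3, 31, 144, 107, 136 and 26 coding nt. The coding sequences of 447 nt were 82.6% identical in the GENCODE M21 transcripts. Of the 78 differing bases, 4 lay at base 1 of a codon, 0 at base 2 and 74 at base 3, and 0 of the 149 codons (stop codon not included) encoded another residue. Exon 2 is printed because it shows this spacing and because its skipping is described further on. Capitals mark the 3 bases at which the genes differ, at chr17:87442696-87442726 and chr7:16919635-16919665.
Calm2 exon 2: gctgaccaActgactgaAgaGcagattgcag
Calm3 exon 2: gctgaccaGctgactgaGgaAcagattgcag
Outside the coding exons the genes differ in size. The last exon spans 644 nt in Calm2 and 1598 nt in Calm3, the first exon 143 and 274 nt, and the whole transcript 1205 and 2290 nt.

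The IQ motif is a calmodulin-binding helix named for its isoleucine and glutamine residues. It is shown for Nrgn and Pcp4. Its core was found once in the translated coding sequence of either gene, at codons 33 to 46 of 78 in Nrgn and 46 to 59 of 62 in Pcp4. The stretch of Nrgn matched the whole consensus, and that of Pcp4 matched the core only. Capitals mark the 18 of 42 bases (42.9%) that the genes share, and the first 6 bases of each line encode the isoleucine and glutamine. The stretches lie at chr9:37546052-37546093 (minus strand) and chr16:96525464-96525505 (plus strand).
Nrgn IQ stretch: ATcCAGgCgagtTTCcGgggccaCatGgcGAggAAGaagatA
Pcp4 IQ stretch: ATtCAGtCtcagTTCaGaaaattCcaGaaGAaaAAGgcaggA

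Calm2 was the highest of the 5 genes in both libraries. Its read count was 4144 and 2405, or 3547 CPM (3440 to 3657) and 2706 CPM (2599 to 2817). Calm3 had 2076 and 1906 reads, or 1777 CPM (1701 to 1855) and 2145 CPM (2049 to 2243). The genes thus moved in opposite directions between the libraries, and the ratio of Calm2 to Calm3 was 2.00 in replicate 1 and 1.26 in replicate 2. By mean level, Calm2 (3127 ± 594 CPM, SD, n = 2) ranked 8 and Calm3 (1961 ± 260 CPM) ranked 20 among all annotated genes. Calmodulin genes have processed copies elsewhere in the genome, so a part of either level is uncertain to the extent that such reads were misplaced.

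Nrgn stood well above the other binders. It had 2506 and 1646 reads, or 2145 CPM (2062 to 2231) in replicate 1 and 1852 CPM (1764 to 1944) in replicate 2, and its mean of 1999 ± 207 CPM (SD, n = 2) ranked 19. Nrgn lay above Calm3 in replicate 1 (ratio 1.21) and below it in replicate 2 (ratio 0.864), so the order of these neighbours was not the same in both libraries.

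Gap43 (ENSMUSG00000047261.9, chr16:42248442-42340651, minus strand) had 530 and 282 reads, or 454 CPM (416 to 494) and 317 CPM (281 to 357), with a mean of 385 ± 96.4 CPM at rank 317. Pcp4 (ENSMUSG00000090223.2, chr16:96467606-96525793, plus strand) had 369 and 202 reads, or 316 CPM (284 to 350) and 227 CPM (197 to 261), with a mean of 272 ± 62.6 CPM at rank 548. Gap43 was above Pcp4 in each library, by a ratio of 1.44 and 1.40, yet the value of Gap43 in replicate 2 was within counting error of that of Pcp4 in replicate 1. Nrgn exceeded Gap43 by a ratio of 4.73 and 5.84, and Pcp4 by 6.79 and 8.15.

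**Figure D1:**
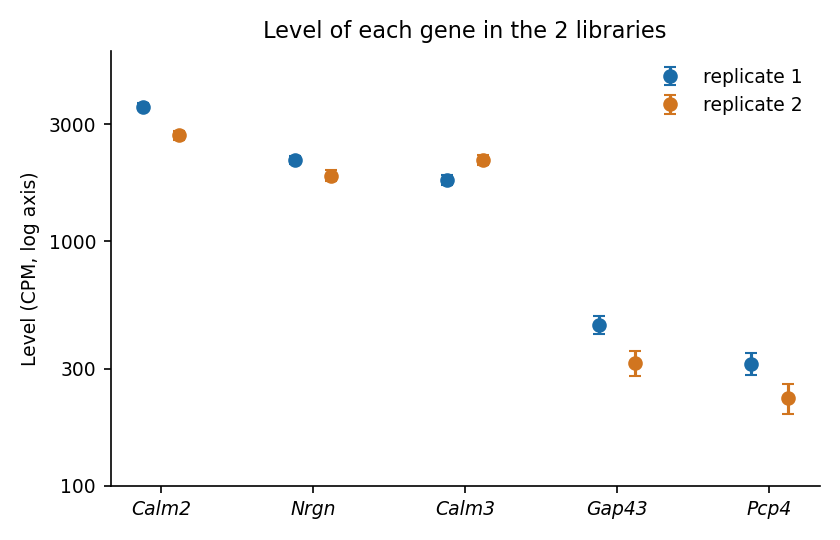
Level of each gene in CPM (log axis) in replicate 1 (blue) and replicate 2 (orange); bars are exact Poisson 95% intervals of the read count. Calm2, Nrgn, Gap43 and Pcp4 were lower in replicate 2 and Calm3 was higher there.

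The unadjusted intervals of the 2 libraries did not overlap for any of the 5 genes. The same was so for 1285 of 11681 genes with at least 10 reads (11%), and for 372 of the 627 genes that reached 500 reads in the sum of the libraries (59.3%), a depth that all 5 genes reached. Over all annotated genes with at least 10 reads, 1342 of 11681 (11.5%) differed in their read split by a two-sided exact binomial test with Benjamini-Hochberg adjustment at 0.05. The difference between the libraries also followed transcript length. Genes with a leading transcript of 500 to 1000 nt had a median log2 ratio (replicate 2 over replicate 1) of -0.64, those of 1000 to 1500 nt -0.29, and those of 2500 to 4000 nt 0.27. The log2 ratios of the members were -0.39 for Calm2 (leading transcript of 1205 nt), -0.21 for Nrgn (1452 nt), -0.51 for Gap43 (1420 nt), -0.47 for Pcp4 (641 nt) and 0.27 for Calm3 (2290 nt). After subtraction of the trend at the same length, -0.07 was left for Calm2, -0.07 for Nrgn, 0.11 for Calm3, 0.15 for Pcp4 and -0.35 for Gap43. Of the 5 genes, Gap43 thus lay farthest from the trend at its length. Its log2 ratio of -0.51 was near the lower of the quartiles of all genes of 1000 to 1500 nt (-0.529 and -0.0196). The median of that range was -0.29, against a trend of -0.17 at 1420 nt. These quartiles are thus not those of genes at the length of Gap43. A long read is 1 cDNA molecule, so CPM was not divided by length, but ratios between a short and a long gene, such as Calm2 over Calm3, carry this trend.

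**Figure D2:**
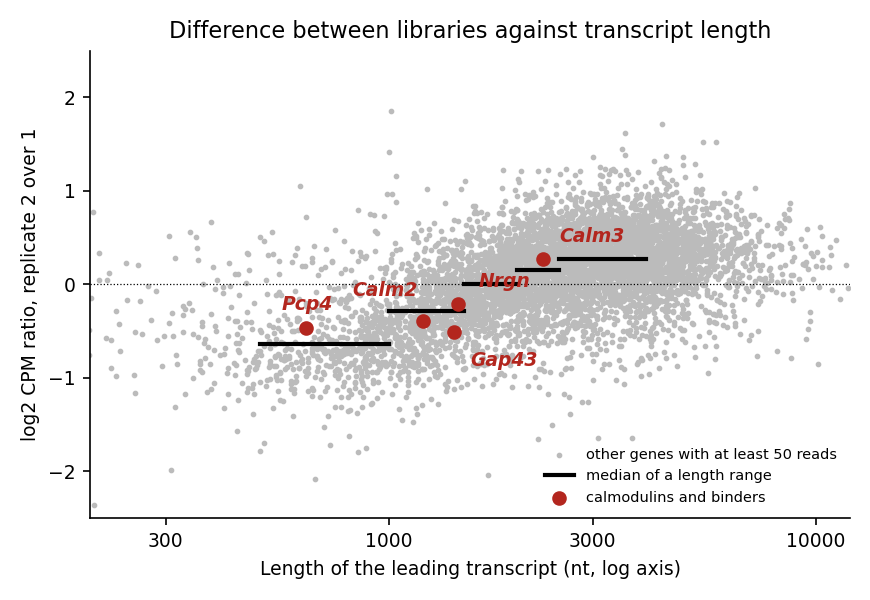
Log2 ratio of CPM (replicate 2 over replicate 1) against the length of the leading transcript (nt, log axis) for genes with at least 50 reads (grey), with the median of each length range (black lines) and the 5 genes (red). The length trend in 20 bins is finer than the black lines and is not drawn. Calm2, Nrgn, Pcp4 and Calm3 lie within 0.15 of that trend at their length, and Gap43 lies at -0.35 from it.

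Markers of the tissue and of its neighbours were also read unequally. The 3 neuronal markers (Snap25, Nefl, Syp) summed to 4029 and 4702 CPM, the 3 excitatory markers to 1497 and 1692 CPM, and the 3 dentate granule cell markers to 281 and 426 CPM. Nrgn, Gap43 and Pcp4 were lower in replicate 2, where these sums were higher. Of the excitatory markers, Slc17a7 (1131 and 1353 CPM) and Camk2a (121 and 137 CPM) went with their sum. Neurod6 went the other way (246 and 203 CPM) and was called higher in replicate 1 with reads scaled to TMM totals. With the length trend removed, 0 of the 3 neuronal and 0 of the 3 excitatory markers passed the test between libraries, against 2 of the 3 dentate markers. The 3 astrocyte markers summed to 2390 and 3866 CPM and the 3 myelin markers to 4529 and 6137 CPM, and 3 and 2 of them passed as higher in replicate 2 with the trend removed. The 3 CA2/CA3 markers summed to 301 and 255 CPM. The 4 choroid plexus markers summed to 4636 CPM in replicate 1, where all 4 were read, and to 5.63 CPM in replicate 2, where Kcnj13, Clic6 and Folr1 were at 0. The part of these differences in the levels of the 5 genes was not tested. Of the Purkinje cell markers, Pcp2 had 2 and 3 reads and Car8 8 and 11, while Calb1, which granule cells also express, had 225 and 219.

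Most reads of 4 of the 5 genes fell on annotated transcripts, and Nrgn was the exception. Annotated transcripts held 97.6% and 98.3% of the Calm2 reads, 97.0% of the Pcp4 reads in each library, 94.3% and 97.9% of the Gap43 reads, and 84.2% and 87.8% of the Calm3 reads. Of Nrgn, 0 of 2506 and 0 of 1646 reads were on an annotated transcript, which allows a share of up to 0.120% and 0.182% (3 reads of the gene's total). Of 181 genes that reached 500 reads in both libraries, Nrgn was the only one with 0 reads on annotated transcripts. Of 1713 that reached 100 reads in both, 14 had none, and Nrgn had the most reads of these.

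**Figure D3:**
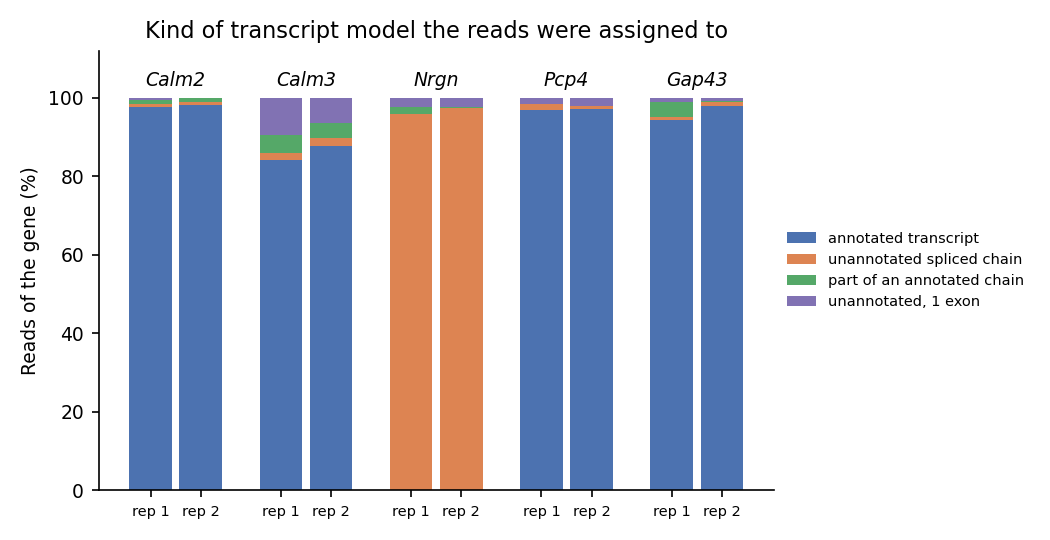
Share of each gene's reads (%) by the kind of transcript model they were assigned to, stacked to 100, in replicates 1 and 2. Annotated transcripts make up at least 84.2% of the reads of Calm2, Calm3, Pcp4 and Gap43 and 0% of those of Nrgn. Kinds follow the deposited classes, which differ between the libraries for some chains. The 2-exon Nrgn model with an unannotated intron (43 and 31 reads) is drawn as part of an annotated chain in replicate 1 only. In replicate 2 it is drawn as an unannotated spliced chain.

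The unannotated form of Nrgn differs from the annotation at a single place, after the stop codon. Nrgn (ENSMUSG00000053310.11) lies at chr9:37544492-37552904 on the minus strand, and its coding transcript Nrgn-201 has 4 exons and 1453 nt, of which 234 nt are coding. The stop codon lies in exon 2, so exons 3 and 4 are 3' untranslated. Exon 3 is 18 nt long, at chr9:37545700-37545717, and the second annotated transcript, Nrgn-202, carries it too. It is shown here in capitals between the 6 last bases of exon 2 and the 6 first bases of exon 4, since it is the sequence that the deposited read models lack.
Nrgn exon 3 in the annotated transcript: ggccagAGCTGAACGTTTTAGAAGttccag
No deposited model of either library had it as an exon of its own: it had 0 reads in both, which allows up to 2.57 and 3.38 CPM. The 18 nt lay inside a longer exon in 4 and 5 reads.

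In place of the 2 annotated introns of 230 and 368 nt, the reads carried 1 intron of 599 nt at chr9:37545349-37545947. It joined the annotated end of exon 2 to a point 17 nt before the annotated start of the last exon, so that those 17 nt (chr9:37545332-37545348) were added to that exon. This intron was in 2427 of 2506 reads (96.8%, 96.1 to 97.5) in replicate 1 and in 1593 of 1646 reads (96.8%, 95.8 to 97.6) in replicate 2. Among reads of models with more than 1 exon the shares were 99.1% and 99.2%. The mean over libraries was 96.8 ± 0.0477% (SD, n = 2), so the libraries differed by less than the counting error of either. The exchange of 18 nt for 17 nt leaves a transcript of 1452 nt against 1453 nt in the annotation, and the coding sequence is the same in both. The deposited files give the positions of aligned exons and no bases of reads, so whether the reads spell the 17 genomic bases or the 18 bases of the annotated exon was not tested.

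**Figure D4:**
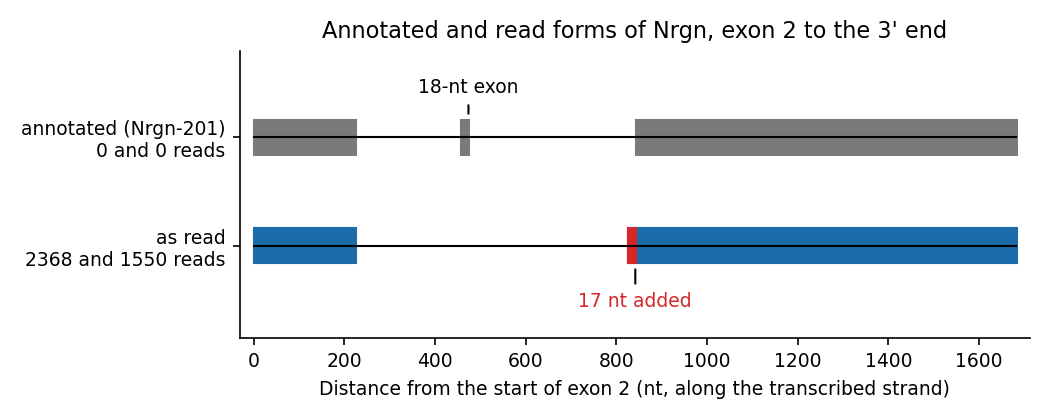
Nrgn from the start of exon 2 to the 3' end (distance in nt, exons as boxes and introns as lines, to scale). The annotated form (grey, 0 reads in each library) has the 18-nt exon, and the leading form as read (blue, 2368 and 1550 reads) lacks it and has 17 nt added to its last exon (red).

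The leading Nrgn chain of 3 exons had 2368 and 1550 reads. The same chain was filed under different classes in the libraries, as holding an unannotated splice site in replicate 1 and as a combination of known sites in replicate 2, so the class names alone do not compare between them. The next models were a 1-exon model of 463 nt at the 3' end (56 and 34 reads), a 2-exon model with the 599-nt intron and a later start (43 and 31 reads), and a 3-exon model of 1460 nt with another acceptor 8 nt away (7 and 2 reads). The first annotated intron, of 6362 nt, was in 2389 and 1563 reads. The annotated intron before exon 4 was in 4 and 3 reads and the annotated intron before exon 3 in 0 and 0. The leading chain thus held most Nrgn reads in each library (94.5% and 94.2%).

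The calmodulin genes used the annotated chain far more often. Calm2-201 had 4037 and 2353 reads, and the next 3 models by reads had 24 and 10 (4 exons, part of the annotated chain), 13 and 2 (1 exon) and 12 and 3 (6 exons with 1 unannotated intron). Calm3-201 had 1747 and 1674 reads. Its second model was an unannotated single exon of 956 nt inside the 1598-nt last exon, ending at the annotated 3' end, with 199 reads (9.59%, 8.35 to 10.9) and 120 reads (6.30%, 5.25 to 7.48). Models with 2 and 4 exons that are the 3' part of the annotated chain had 59 and 46, and 26 and 16 reads. The reads of Calm3 outside the leading transcript were thus mostly on models shorter at the 5' side, with the same assigned 3' end. Only ends of models are given, so where the reads themselves ended is not known.

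Pcp4-201 had 357 and 195 reads and a 1-exon model of 399 nt had 6 and 4. A 3-exon model with 1 unannotated intron had 4 and 1 reads, and Pcp4-203 had 1 and 1. Gap43-201 had 497 and 274 reads. A 2-exon part of the Gap43 chain, without the first exon, had 19 reads in replicate 1 and 1 in replicate 2, and a 17-nt single exon had 6 and 0. Gap43-202 had 3 and 2 reads. The 2-exon form of Gap43 was thus read mainly in replicate 1.

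Use of the leading transcript was compared between the libraries with a two-sided Fisher's exact test over the 6433 genes that reached 20 reads in both, of which 70 (1.09%) passed after Benjamini-Hochberg adjustment, 33 with a higher share in replicate 1 (0.513%) and 37 in replicate 2 (0.575%). Nrgn is given with no test, since its leading model is the chain with the unannotated intron. None of the other 4 genes passed. The nearest was Calm3, whose leading share was 84.2% (82.5 to 85.7) in replicate 1 and 87.8% (86.3 to 89.3) in replicate 2, with an exact p of 0.000871 and an adjusted p of 0.0659. With at least 50 reads required in each library, 78 of the 3447 genes tested passed, Calm3 among them (Fisher's exact, adjusted p = 0.0429). The share was 93.8% and 97.2% for Gap43 (Fisher's exact test, adjusted p = 0.535; a difference of 3.39 points, or -0.125 with annotated transcripts only), 97.4% and 97.8% for Calm2 (Fisher's exact, adjusted p = 0.901), and 96.7% and 96.5% for Pcp4 (Fisher's exact, adjusted p = 1). The leading Nrgn chain held 94.5% (93.5 to 95.4) and 94.2% (92.9 to 95.3) of the gene's reads.

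Exon 2 of the calmodulin genes, whose sequences are given above, was skipped in few reads. Counted over all skipping reads, the share was larger in Calm3 than in Calm2. The 31 nt of exon 2 are not a whole number of codons. Of reads spanning it, Calm2 skipped it in 7 of 4091 (0.171%, 0.0688 to 0.352) in replicate 1 and in 10 of 2385 (0.419%, 0.201 to 0.770) in replicate 2. Calm3 skipped it in 18 of 1785 (1.01%, 0.599 to 1.59) and in 19 of 1711 (1.11%, 0.670 to 1.73). The intervals of the genes were apart in replicate 1 and overlapped in replicate 2. The skipping forms were not alike. In Calm2, 14 of the 17 skipping reads went from the annotated end of exon 1 to exon 3, and these were the reads of the annotated Calm2-204 (5 and 9 reads), whose coding sequence of 339 nt starts later. In Calm3, 25 of 37 skipping reads left exon 1 at a point 23 nt past its annotated end, in an unannotated model with 11 and 14 reads. Only 2 Calm3 reads went from the annotated end of exon 1 to the annotated start of exon 3, against the 14 of Calm2. The larger share in Calm3 thus rests on reads that left exon 1 at other points. Whether bases of exon 2 were aligned at those points was not tested.

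**Figure D5:**
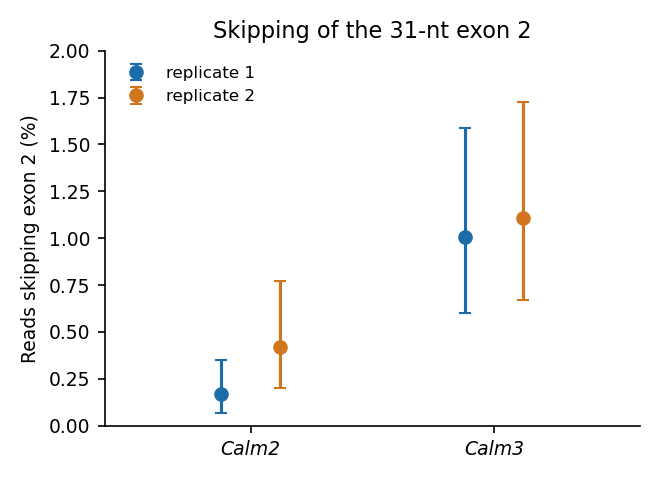
Share of reads (%) that skip the 31-nt exon 2 of Calm2 and Calm3 in replicate 1 (blue) and replicate 2 (orange), with exact binomial 95% intervals. Calm2 lies at 0.171 and 0.419% and Calm3 at 1.01 and 1.11%. All skipping reads are counted, wherever they left exon 1.

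Short and long 3' forms were sought in the ends of the deposited models, joined where they lay within 50 nt. Nearly all reads were assigned to the long, annotated end of each gene. Its share was 99.6% and 99.5% in Calm2, 99.9% and 100% in Calm3, 99.6% and 99.3% in Nrgn, 100% in each library in Pcp4, and 99.8% and 100% in Gap43. Of the other ends of Calm2, those in the last exon lay 253 nt upstream, where Calm2-204 ends (5 and 9 reads), and 308 nt upstream, where Calm2-202 ends (4 and 1 reads). Those farther upstream had 6 and 2 reads (13373 nt) and 2 and 0 reads (2192 nt). The shorter end of Calm3 lay 1319 nt upstream and had 3 and 0 reads, and that of Nrgn in its last exon lay 462 nt upstream, at the end of Nrgn-202, with 11 and 9 reads. Another Nrgn end, 2290 nt upstream, had 0 and 3 reads, and that of Gap43, 43903 nt upstream, had 1 and 0. Reads with an annotated intron chain carry the ends of the annotated transcript in the deposited tables, so a shorter 3' end within such a chain would not show. Unannotated chains had such ends too. Nrgn had 0 reads on annotated transcripts, yet 2495 and 1634 of its reads were assigned to exactly the annotated end. Where those reads themselves ended is not known. These shares are therefore not a measure of alternative polyadenylation in any of the genes.

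The leading ends carry a common sequence feature. The last 30 bases of each leading annotated transcript, from GENCODE M21 on mm10, held the polyadenylation signal AATAAA, given in capitals. They lie at chr17:87433412-87433441, chr7:16915379-16915408, chr9:37544492-37544521, chr16:96525764-96525793 and chr16:42248442-42248471, in the order of the lines.
Calm2 leading 3' end: ttccAATAAAaaaaattacaatttacccaa
Calm3 leading 3' end: aatgttttccAATAAAatacagtgactacc
Nrgn leading 3' end: gtgaatAATAAAgaggaatgtctaagtgta
Pcp4 leading 3' end: ttgtAATAAAaaggaggtaagatgagtgaa
Gap43 leading 3' end: tgaatattAATAAAtcatgagagtaatcaa
The signal stood 20, 14, 18, 20 and 16 nt before the end. It was searched on the transcribed strand only, and 7510 of 14269 protein-coding transcripts read in both libraries (52.6%) had it in the same window. The short end of Nrgn differs in its surroundings. It is shown with the 20 bases after the end in capitals, at chr9:37544934-37544963 on the minus strand, because 17 of those 20 bases are A.
Nrgn short 3' end: aatactctcaAAAAAAGAAAGAAAAAAAGA
The 20 bases after the short ends held 3 A (Calm2, 253 nt), 7 A (Calm2, 308 nt) and 3 A (Calm3). The part of this stretch in the Nrgn reads assigned to that end was not tested.

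Genes that act with calmodulin were read broadly, and those whose read split passed the test were mostly higher in replicate 2. Of 67 listed genes, 58 had at least 10 reads. By the exact binomial test, 2 of the 58 were higher in replicate 1 (5.24% of all genes tested were) and 12 in replicate 2 (6.25% of all genes tested were), and the median log2 ratio was 0.33 against 0.11 over all genes tested. The shares over all genes here were not matched to the list in depth. Of the 58, 45 reached 50 reads in the sum of the libraries. Genes with more reads differ more often, as the intervals above show (11% of all genes tested, 59.3% of those with 500 reads). With the trend with transcript length removed, 2 and 3 of the 58 passed (3.77% of all genes passed, 1.88% in each direction). Reads scaled to TMM totals gave 2 and 8 (10.1% of all genes passed, 6.89% and 3.17% by direction) and moved the median of all genes to -0.01.

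Among the small membrane and growth-cone proteins related to Gap43, 1 of 4 was higher in replicate 1 and 1 in replicate 2. Marcksl1, a calmodulin-binding substrate of protein kinase C, had 1139 ± 45.1 CPM (SD, n = 2), which placed it below Nrgn and above Gap43. Basp1, a growth-cone protein, had 686 and 584 CPM and was higher in replicate 1 (exact binomial test, adjusted p = 0.0396), as Gap43 was by its values. Marcks had 330 and 437 CPM and was higher in replicate 2 (exact binomial test, adjusted p = 0.00230), though not once the length trend was removed or with TMM totals.

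Genes of larger proteins with IQ motifs, such as unconventional myosins and sodium channels, had lower levels than Nrgn, Gap43 and Pcp4. Of 21, 17 were tested, 0 were higher in replicate 1 and 2 in replicate 2, Scn8a and Iqsec3, and neither passed with the length trend removed or with TMM totals. The most read were the myosin gene Myo5b (192 ± 23.1 CPM), the Ras exchange factor gene Rasgrf1 (163 ± 28.6 CPM) and the sodium channel gene Scn8a (87.1 ± 31.2 CPM). All 3 were below Pcp4 (272 CPM). They were above Pcp4l1, a gene of the list of small proteins, which had 44.5 and 27.0 CPM. The leading transcripts of Myo5b, Rasgrf1 and Scn8a spanned 2795, 4092 and 7030 nt, against 641 nt in Pcp4. The part of transcript length in this order was not tested.

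Of 14 calmodulin-dependent kinases, 13 were tested, with 0 higher in replicate 1 and 2 higher in replicate 2. Camk2b, a subunit gene of calcium/calmodulin-dependent kinase II, led with 651 and 1016 CPM and was higher in replicate 2 (exact binomial test, adjusted p = 3.76e-17), also with the length trend removed. The other was Camkk2, which did not pass with the length trend removed. Camkk1 followed Camk2b with 154 ± 26.9 CPM and Camk2a, the other main forebrain subunit gene of the kinase, with 129 ± 11.7 CPM. Camk2a was thus lower in CPM than Nrgn, Gap43 and Pcp4 in each library. Its leading transcript spanned 3290 nt, against 1452, 1420 and 641 nt in those genes. The part of length in this order was not tested.

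Of 24 further calmodulin targets, 23 were tested, with 0 higher in replicate 1 and 7 in replicate 2. Ppp3ca, the catalytic subunit gene of the phosphatase calcineurin, had 1351 and 1924 CPM (exact binomial test, adjusted p = 1.75e-21) and its values overlapped those of Calm3 (1777 and 2145 CPM). Camkv, a kinase-like protein of vesicles, had 799 ± 84.2 CPM and the striatin gene Strn4 441 ± 126 CPM, and both were among the 7. With the trend removed 2 of these targets passed, Ppp3ca and Camta2.

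Of the listed calmodulin-like genes, only Calml4 was read. Calml3, Calm4 and Calm5, known from epithelia, had 0 reads in both libraries, which allows up to 2.57 and 3.38 CPM. Calml4 had 29 reads in replicate 1 and 2 in replicate 2, and was higher in replicate 1 (exact binomial test, adjusted p = 0.000319). Replicate 1 is also where the choroid plexus markers were read. The part of those cells in the Calml4 reads was not tested.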

How the data were processed

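Hippocampus RNA of 1 group was measured in 2 long-read libraries. The authors deposited unscaled counts of reads for each transcript model, made on mm10 with GENCODE M21 plus models that TALON added from each library, per the file headers. Aligner, versions and read filters were not given in the sources used here. The members and gene lists were chosen with earlier results of these data known. From the counts, CPM (over all reads of a table), exact Poisson and Clopper-Pearson 95% intervals, introns, exons and 3' ends (joined within 50 nt) were computed. Models were matched between libraries by intron chain. Genes with at least 10 reads in all were tested with an exact binomial test of how their reads divided between the libraries. Leading transcripts were tested with Fisher's exact test at 20 reads in each library or more. Both used Benjamini-Hochberg adjustment at 0.05 over all genes. Log2 ratios used an added 1 CPM. The length trend is the median log2 ratio in 20 bins of genes with at least 50 reads. The tests were tested on simulated data. Sequences came from the GENCODE M21 transcripts. The text names all members, their 4 models with the most reads and any with 5% of a gene's reads, and of each list the 3 genes with the highest mean CPM and those with 0 reads. Iqsec3, Camkk2, Camta2 and Pcp4l1 were singled out after their values were seen, as was the skipping of exon 2. A further calmodulin gene and a further sequence are not reported here. The characteristics number different animals for each pool, while a description line repeats those of replicate 1, and p-values measure differences between these libraries only. Python 3.11.15, scipy 1.17.1, pandas 2.3.3, numpy 2.4.6, matplotlib 3.10.9 and R 4.3.3 with edgeR 4.0.16 (TMM) and DESeq2 1.42.0 (size factors) were used.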

Additional observations from a re-analysis of the deposited data

Results flagged for a closer look

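Reads on the strand opposite 2 of the genes exceeded the limit that a count of 0 allows (2.57 CPM in replicate 1 and 3.38 CPM in replicate 2), and lay in antisense models that the comparisons of the genes do not use. Opposite Nrgn, the models named as antisense loci had 24 reads (20.5 CPM) in replicate 1 and 6 reads (6.75 CPM) in replicate 2, and models under any name had 31 reads (26.5 CPM) and 9 reads (10.1 CPM). The model with the most of them began at the boundary of exon 2 and the first intron of Nrgn, at chr9:37546174 in both libraries, and ran to 37546959 in replicate 1 and to 37546782 in replicate 2. Opposite Calm2, there were 4 reads (3.42 CPM) and 6 reads (6.75 CPM), and their leading models lay at different places in the libraries. Opposite Gap43 there were 7 and 1 reads, above the limit in replicate 1 only. No cause was tested.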

How the results depend on the processing

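No paired analysis was possible because the design has 1 group. Removing the length trend left 440 genes that differed between the libraries against 1342, and 5 pathway genes against 14. With annotated transcripts only, 6 pathway genes passed and 7 genes differed in leading share against 70, Calm3 had 1689 CPM against 1961 and Nrgn 0 against 1999, and the long-end share of Calm2 was 99.7%. Nrgn had 2279 CPM with TMM totals and 2244 CPM with annotated genes as the total. With multi-exon models only, the long-end share was 99.7% for Calm2 and 99.6% for Nrgn, and 99.2% of Nrgn reads had the 599-nt intron (99.5% in chains read in both libraries, against 96.8% overall). Each library alone gave 2706 to 3547 CPM for Calm2, 1777 to 2145 for Calm3, 1852 to 2145 for Nrgn, 227 to 316 for Pcp4 and 317 to 454 for Gap43. Calm3 passed the leading share test at 50 reads, at a difference of 3.68 points, and with annotated transcripts only the differences of Gap43 and Calm2, which did not pass, went from 3.39 to -0.125 points and from 0.420 to -0.201 points. None of the alternatives reversed a direction that had passed a test, and 71 of the values moved by less than the spread between libraries or kept their side of the threshold. Depth limits the rare forms: skipping of exon 2 and the short 3' ends rest on 19 reads or fewer per library, and pools of 3 animals give no spread between animals.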

Other observations

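Besides the leading forms, the genes had many rare ones. Calm3 was read as 29 models over both libraries, Calm2 as 28, Nrgn as 31, Gap43 as 11 and Pcp4 as 6, of which 13, 14, 10, 4 and 4 were read in both. Of the annotated transcripts, 3 of 4 were at 0 reads in Calm3, 2 of 2 in Nrgn, 2 of 4 in Pcp4, 1 of 4 in Calm2 and 0 of 2 in Gap43. These values are given with no explanation.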
